A study of Mus musculus with 50 samples.

Results

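The question was how the effect of a constitutive loss of 2 histone deacetylases on sorted mouse microglia changed between 2 and 6 weeks of age. For each gene the knockout effect at 2 weeks was subtracted from the knockout effect at 6 weeks, and this difference of differences is called the age interaction. It used 13 of the 50 libraries of the series. Knockouts at 6 weeks (n = 3) and at 2 weeks (n = 2) had the genotype HDAC1/2-loxP/loxP CX3CR1-Cre. Their controls at 6 weeks (n = 4) and at 2 weeks (n = 4) were HDAC1/2-loxP/loxP without Cre. The controls lack Cre, so the deletions and the presence of the Cx3cr1-driven Cre cannot be told apart. None of the 4 groups was treated, and the labelled ages were 45 days for the 6-week groups and 14 days for the 2-week groups. Each library came from 1 animal, so p-values measure the spread between animals.

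HDAC1 and HDAC2 are closely related enzymes that remove acetyl groups from histone tails. They work as the catalytic subunits of the Sin3, NuRD and CoREST complexes, which mostly lower transcription, and they are needed for normal cell cycle progress. Microglia are the resident macrophages of the brain. They divide in the first weeks after birth, then settle into a mature state marked by genes such as P2ry12, Tmem119, Sall1 and Cx3cr1. The 2 ages lie on either side of that transition. In bulk RNA of sorted cells, a change in the share of cells of a type and a change in RNA per cell cannot be told apart.

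Levels are CPM, a gene's counts scaled to a fixed library total, and values of libraries are listed in rising order of their animal numbers. Calls are adjusted p-values under 0.05 from edgeR's quasi-likelihood test. Totals ran from 12171207 to 25694928 counts per library, and 16043 genes were tested. Hdac1 (chromosome 4, 129516104 to 129542713, GRCm38) had 7.56, 92.2 and 11.5 CPM in 6-week knockouts and 16.4, 16.6, 13.4 and 16.1 CPM in 6-week controls. At 2 weeks Hdac1 had 9.66 and 15.1 CPM in knockouts and 17.9, 19.0, 18.9 and 18.3 CPM in controls. The library labelled knockout 380 thus held more Hdac1 counts than any control of its age, and each other knockout held fewer than every control of its age. Hdac1 did not pass the test at either age or for the interaction. Hdac2 (chromosome 10, 36974544 to 37001889) had 44.9, 25.9 and 18.3 CPM in 6-week knockouts and 74.3, 67.1, 64.4 and 71.6 CPM in 6-week controls. At 2 weeks it had 41.0 and 70.1 CPM in knockouts and 67.3, 71.3, 59.8 and 69.6 CPM in controls. Hdac2 fell at 6 weeks (log2 change of -1.28, SE 0.26, adjusted p = 0.00482, edgeR), whereas the library labelled knockout 89 lay within the controls. Its age interaction of -1.05 did not pass (adjusted p = 0.0738), and without the library labelled knockout 80 it was -1.42 (adjusted p = 0.0141). Without the library labelled knockout 89 the Hdac2 interaction was -0.47 (adjusted p = 0.488). The counts cover the whole gene, so reads outside the deleted exons are part of these values. Both libraries that went against their label at 1 of the genes stay in the comparison.

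The knockout effect was called for 1865 genes at 6 weeks (11.6%) and for 6764 genes at 2 weeks (42.2%). In knockouts at 6 weeks 1066 genes were higher (6.64% of those tested) and 799 were lower (4.98%) than in 6-week controls. In knockouts at 2 weeks 3928 genes were higher (24.5%) and 2836 were lower (17.7%) than in 2-week controls. Of the 6-week calls 82.2% were also called at 2 weeks in the same direction, and of the 2-week calls 22.7% were called at 6 weeks in the same direction. The age interaction itself passed for 2534 genes (15.8%), with 943 higher (5.88%) and 1591 lower (9.92%). These counts rest in part on single animals. Without the library labelled knockout 89 the interaction passed for 518 genes higher and 583 lower, and without the library labelled knockout 80 for 1272 higher and 1851 lower. Leaving out either leaves 1 library in the 2-week knockout group, which is then assumed to vary like the other groups. Without the library labelled knockout 380 the 6-week calls numbered 679 higher and 466 lower. The shares of all genes in this paragraph are the background for every count of list members below.

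Each gene was placed by its 3 calls. An effect faded where it was called at 2 weeks and the interaction was called against it. It grew where it was called at 6 weeks and the interaction was called in its direction, and it reversed where both ages were called in opposite directions with the interaction called. It persisted where both ages were called in the same direction and the interaction was not. Fading rises numbered 1499 (9.34% of genes tested) and fading falls 879 (5.48%). Persisting rises numbered 657 (4.1%) and persisting falls 444 (2.77%), together 6.86%, and for 334 of these (2.08%) the 95% interval of the interaction lay within 1 log2 unit of 0. Growing rises numbered 35 (0.218%), growing falls 43 (0.268%) and reversals 16 (0.0997%), of which 5 (0.0312%) were higher and 11 (0.0686%) lower in 6-week knockouts. A further 3507 genes (21.9%) were called at 1 age with no interaction call, so whether their effect changed was not resolved. The interaction alone was called for 62 genes (0.386%), and 8901 (55.5%) had no call.

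**Figure D1:**
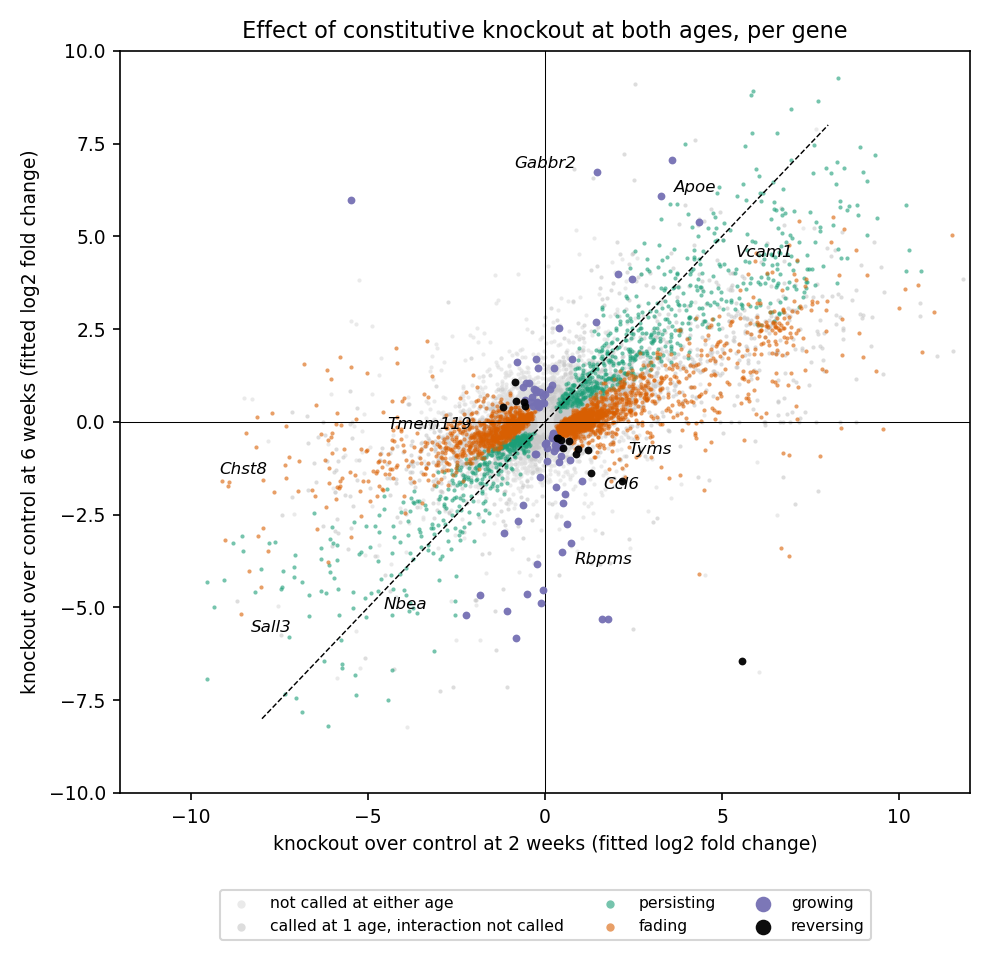
Fitted log2 change of knockout over control at 2 weeks (x axis) and at 6 weeks (y axis) for each of the 16043 genes tested, coloured by the course of the effect; the dashed line marks equal effects. Orange points (fading) lie mostly along the horizontal axis, green points (persisting) along the dashed line, and the 78 purple and 16 black points are the genes whose effect grew or reversed. The most extreme fitted values belong to genes with 0 counts in a group, where the fit depends on a prior count.

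What remained of the faded effects was small at the median. At 6 weeks 242 of the 1499 fading rises and 180 of the 879 fading falls were still called. Among fading rises the median log2 change was 0.08 at 6 weeks and 1.23 at 2 weeks, and among fading falls it was -0.23 at 6 weeks and -1.38 at 2 weeks. Over all genes tested the median was -0.00 at 6 weeks and 0.00 at 2 weeks. The share of the 2-week log2 effect that was left at 6 weeks had a median of 6.96% for rises and 16.7% for falls. The rule for fading uses both effects, so these medians describe the genes and support nothing further. Over all genes the change with age was called higher for 2272 (14.2%) and lower for 2943 (18.3%) in knockouts, together 32.5%. In controls it was called higher for 1002 (6.25%) and lower for 844 (5.26%), together 11.5%. In knockouts all 3 animals of 6 weeks were female and both of 2 weeks were male, so age and sex cannot be told apart there. In controls only 1 female of 2 weeks separates them, and a sex term rests on that animal. With sex as a term the age changes numbered 665 higher and 927 lower in knockouts and 102 higher and 160 lower in controls. Knockouts moved toward controls with age in 1295 of the 1499 fading rises and in 770 of the 879 fading falls. Controls moved with age in the direction of the 2-week effect in 200 and 68 of them.

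Cell cycle genes were higher in knockouts, and more so at 2 weeks. At 6 weeks 6 of 32 DNA replication genes and 13 of 28 mitosis genes were higher in knockouts than in controls, and none was lower. At 2 weeks all 32 and all 28 were higher in knockouts than in controls. The interaction was called lower for 19 replication genes, with a list median of -1.26, and for 9 mitosis genes, with a list median of -1.27; the median over all genes was 0.01. The summed level of the mitosis list was 117 to 187 CPM in 6-week knockouts and 59.7 to 74.1 CPM in 6-week controls. At 2 weeks it was 2352 and 2443 CPM in knockouts and 441 to 532 CPM in controls. In both genotypes the mitosis sum was lower at 6 weeks than at 2 weeks, and no knockout library overlapped a control of its age. Over all genes tested, every knockout lay above every control for 13.5% at 6 weeks and 30.3% at 2 weeks, and below for 8.37% at 6 weeks and 24.8% at 2 weeks. Without the library labelled knockout 89 the interaction passed for 8 replication genes and 1 mitosis gene, although the 2-week rise was still called for 27 of the 28 mitosis genes.

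Tyms, which makes thymidylate for DNA synthesis (chromosome 5, 30058202 to 30073617), stood at 16.3, 11.1 and 13.01 CPM in 6-week knockouts and at 15.0, 16.1, 15.3 and 16.9 CPM in 6-week controls. It reached 107 and 105 CPM in 2-week knockouts, against 24.7, 27.5, 28.7 and 26.6 CPM in 2-week controls. The 6-week groups overlapped and the 2-week groups lay far apart. Its age interaction was -2.28 (SE 0.20, adjusted p = 1.97e-05), and the call held under every alternative tried for this gene. Rrm1, the large subunit of ribonucleotide reductase, had 39.5, 35.4 and 35.8 CPM in 6-week knockouts and 35.6, 31.1, 44.1 and 47.6 CPM in 6-week controls. At 2 weeks Rrm1 had 185 and 167 CPM in knockouts and 49.6, 55.7, 46.3 and 52.2 CPM in controls, and its interaction was -1.95 (SE 0.20, adjusted p = 6.99e-05). Mcm5, part of the replicative helicase, followed with an interaction of -1.94 (SE 0.32, adjusted p = 0.00136). Mcm5 had 18.4, 10.2 and 12.1 CPM in 6-week knockouts and 14.1, 15.1, 11.7 and 12.8 CPM in 6-week controls, so that its 2-week rise to 99.6 and 136 CPM in knockouts, against 26.4 to 41.3 CPM in controls, had gone. Both kept their call under every alternative.

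Of the 28 mitosis genes 9 had fading rises, 8 had persisting rises and 11 were not resolved. Ccnb2, a cyclin of mitotic entry, had 7.15, 3.57 and 2.67 CPM in 6-week knockouts and 0.938, 2.26, 2.18 and 2.28 CPM in 6-week controls, and was still called higher (log2 change of 1.12, adjusted p = 0.0361). At 2 weeks Ccnb2 had 104 and 125 CPM in knockouts and 11.8 to 16.1 CPM in controls. Its interaction of -1.96 (adjusted p = 0.0101) was lost without the library labelled knockout 89 (adjusted p = 0.0602), as were those of the mitotic kinase Plk1 (-2.35, adjusted p = 0.0106, then 0.0703) and of the checkpoint kinase Bub1b (-2.21, adjusted p = 0.011, then 0.059). The spindle checkpoint gene Mad2l1 kept its interaction of -1.80 (SE 0.29, adjusted p = 0.00138) without that library (adjusted p = 0.00861). Mki67, the common marker of cycling cells, is among the 8 mitosis genes with a persisting rise. It stood at 19.7, 18.1 and 8.52 CPM in 6-week knockouts and at 4.94, 5.38, 5.84 and 3.76 CPM in 6-week controls. In 2-week animals it stood at 348 and 256 CPM in knockouts and at 68.3 to 77.4 CPM in controls. Its log2 change was 1.58 at 6 weeks and 2.06 at 2 weeks, with an interaction of -0.48 whose interval ran from -1.19 to 0.22. Rrm2, the small subunit of ribonucleotide reductase, and Cdc6, which licenses replication origins, were also called higher at both ages without an interaction call. Their log2 changes were 1.85 and 3.62 at 6 weeks and 2.73 and 3.63 at 2 weeks.

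**Figure D2:**
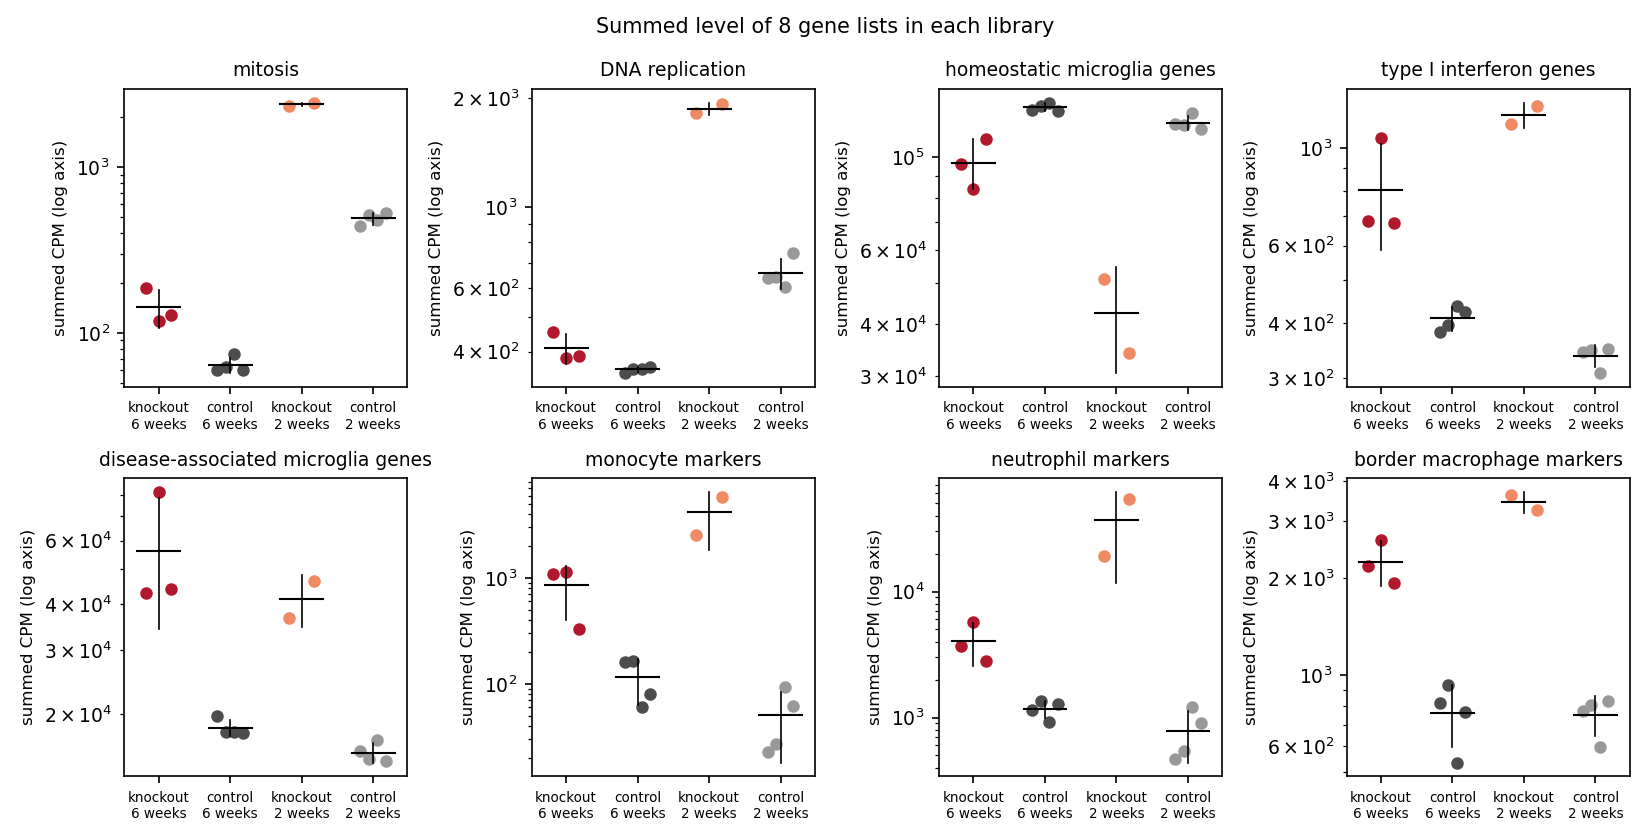
Summed CPM (log axis) of 8 gene lists in each of the 13 libraries; points are libraries, horizontal bars group means and vertical lines ± 1 SD (n = 3, 4, 2 and 4 from left to right). The mitosis and neutrophil lists are highest in the 2 knockouts at 2 weeks, and the homeostatic list is lowest there, at 51144 and 34044 CPM.

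Promoters of 4 of the replication and mitosis genes whose rise faded are shown as examples. The sequences are RefSeq (GRCm38.p6), 120 bases that end 1 base before the annotated start, on the strand of the gene. Capitals mark CCAAT or its complement ATTGG, the element bound by the factor NF-Y. The 4 were chosen because they hold these letters, and the windows of Tyms and Mad2l1 hold none of the letters searched, which says only that the letters are not in those 120 bases.
Rrm1, chr7:102441575-102441694, plus strand: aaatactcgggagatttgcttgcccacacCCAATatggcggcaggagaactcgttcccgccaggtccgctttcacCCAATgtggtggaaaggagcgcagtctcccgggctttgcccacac
Mcm5, chr8:75109389-75109508, plus strand: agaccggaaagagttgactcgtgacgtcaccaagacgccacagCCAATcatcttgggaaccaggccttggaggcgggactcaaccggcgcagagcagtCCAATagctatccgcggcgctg
Ccnb2, chr9:70421555-70421674, minus strand: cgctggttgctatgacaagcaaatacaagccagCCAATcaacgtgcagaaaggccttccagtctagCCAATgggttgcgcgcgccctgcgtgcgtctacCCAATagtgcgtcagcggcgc
Bub1b, chr2:118598091-118598210, plus strand: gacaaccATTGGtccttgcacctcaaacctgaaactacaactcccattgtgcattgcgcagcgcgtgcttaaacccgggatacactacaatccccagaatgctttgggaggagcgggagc
Within 250 bases before the start, CCAAT on either strand was found in 80.8% of 26 promoters of 24 mitosis genes, in 59.4% of 32 promoters of 27 replication genes and in 33.8% of all 32851 promoters. The E2F letters TTTGGCGC, TTTCCCGC, TTTCGCGC or TTTGCCGC were found on either strand in 8 of the 32 replication promoters and in 1.9% of all promoters. The letters TTTGAA, the core of the CHR element, were found in 38.5% of the mitosis promoters and in 16.0% of all promoters. Among all fading rises the share with CCAAT was 38.2%. CCAAT was also common in promoters of antigen presentation genes (87.5% of 16) and of cholesterol synthesis genes (84.2% of 19). Of the cholesterol synthesis genes edgeR called 0 for the interaction. TTTGAA was found in 37.5% of 16 promoters of anti-apoptotic genes. These letters are thus not particular to lists whose rise faded. A match is a description of the letters and not of a bound site.

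Among genes of cell cycle arrest and cell death the interaction was called for 1 of 7 cyclin-dependent kinase inhibitors, 1 of 27 p53 targets, 4 of 19 pro-apoptotic and 1 of 11 anti-apoptotic genes, against 15.8% of all genes tested. The shares of all genes called were 11.6% at 6 weeks and 42.2% at 2 weeks, and the p53 target counts below lay near both. The called inhibitor, Cdkn2d, had 19.9, 14.8 and 11.3 CPM in 6-week knockouts and 7.75, 8.80, 8.13 and 7.39 CPM in 6-week controls. In 2-week animals Cdkn2d had 39.5 and 92.6 CPM in knockouts and 7.03 to 9.56 CPM in controls, and its interaction was -2.11 (SE 0.40, adjusted p = 0.00321), or -1.22 without the library labelled knockout 89 (adjusted p = 0.0394). Cdkn1a, the p53-induced inhibitor, had a 6-week change of 0.68 that did not pass and was higher at 2 weeks (log2 change of 1.72), and its interaction of -1.05 did not pass. Of 27 p53 targets 3 were higher and 1 lower at 6 weeks, 11 were higher and 2 lower at 2 weeks, and the interaction was called higher for Ercc5, a DNA repair nuclease (0.62, adjusted p = 0.0471). The Ercc5 call was lost in 14 of 18 alternatives, among them leaving out the library labelled knockout 89 (adjusted p = 0.235). Of 19 pro-apoptotic genes 1 was higher and 2 lower at 6 weeks, 8 were higher and 3 lower at 2 weeks, and the interaction was called higher for 2 and lower for 2, and for 0 without the library labelled knockout 89. Anti-apoptotic genes gave 4 rises at 6 weeks and 4 rises and 1 fall at 2 weeks among 11, with 1 interaction call.

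Genes of the homeostatic microglia state were lower in knockouts, less so at 6 weeks than at 2 weeks. Of 35 such genes 12 were lower in 6-week knockouts than in 6-week controls, and 32 were lower in 2-week knockouts than in 2-week controls. The list median log2 change was -0.42 at 6 weeks and -1.41 at 2 weeks. The interaction was called higher for 24 and lower for none, with a list median of 0.93. The summed level was 83982 to 110519 CPM in 6-week knockouts and 128795 to 135037 CPM in 6-week controls. In 2-week animals it was 51144 and 34044 CPM in knockouts and 116751 to 127537 CPM in controls. The groups did not overlap at either age. Every knockout lay below every control for 8.37% of all genes tested at 6 weeks and for 24.8% at 2 weeks. Without the library labelled knockout 89 the interaction was called for 13 of the 35, and without the library labelled knockout 380 the 6-week fall was called for 5.

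Tmem119, a membrane protein that marks microglia among brain macrophages (chromosome 5, 113793729 to 113800516), had 2626, 2081 and 2548 CPM in 6-week knockouts and 3008, 3259, 2505 and 3206 CPM in 6-week controls. It had 926 and 853 CPM in 2-week knockouts and 2456, 2943, 2882 and 2665 CPM in 2-week controls. The ranges met at 6 weeks and were far apart at 2 weeks, and the interaction was 1.26 (SE 0.19, adjusted p = 0.000931). Selplg, a selectin ligand, had 2831, 2017 and 3367 CPM in 6-week knockouts and 4329, 5055, 4597 and 4898 CPM in 6-week controls. In 2-week animals Selplg had 771 and 726 CPM in knockouts and 3465 to 4296 CPM in controls, with an interaction of 1.48 (SE 0.24, adjusted p = 0.00122). Cst3, the protease inhibitor cystatin C and one of the most abundant microglial transcripts, stood at 14840, 15620 and 22440 CPM in 6-week knockouts and at 25390 to 28280 CPM in 6-week controls. Cst3 reached only 4338 and 2750 CPM in 2-week knockouts, against 13070 to 17430 CPM in 2-week controls, and its interaction was 1.48 (SE 0.25, adjusted p = 0.00166). The calls of Tmem119, Selplg and Cst3 held under every alternative.

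Some other homeostatic genes were called lower at both ages without an interaction call, which does not show that their fall stayed the same. Cx3cr1, the fractalkine receptor whose locus also drives the Cre, had 2280, 3320 and 4804 CPM in 6-week knockouts and 5297, 7885, 5529 and 7742 CPM in 6-week controls. In 2-week animals it had 2233 and 1762 CPM in knockouts and 6467 to 7273 CPM in controls. Cx3cr1 fell at both ages, by 0.98 on the log2 scale at 6 weeks and by 1.78 at 2 weeks, and its interaction of 0.80 did not pass (adjusted p = 0.093) but was called in 2 of 18 alternatives (smallest adjusted p = 0.0205). The 6-week call of Cx3cr1 was lost with the newborn groups in the fit (adjusted p = 0.169). Fcrls, Golm1 and Ltc4s also had persisting falls. Sall3, a transcription factor related to Sall1, was among the fading falls with a large part of its effect left. It had 9.94, 2.51 and 7.03 CPM in 6-week knockouts and 202 to 243 CPM in 6-week controls, against 0.515 and 0.310 CPM in 2-week knockouts and 154 to 163 CPM in 2-week controls. Its log2 change was -5.17 at 6 weeks and -8.60 at 2 weeks, and its interaction was 3.43 (SE 0.60, adjusted p = 0.00255). Sall1, which maintains microglial identity, had 576, 319 and 569 CPM in 6-week knockouts and 851 to 910 CPM in 6-week controls. At 2 weeks Sall1 had 236 CPM in knockout 80, 1.33 CPM in the library labelled knockout 89 and 879 to 973 CPM in controls. The pair of 2-week knockouts thus lay far apart, and the age interaction of Sall1 did not pass (2.14, adjusted p = 0.358).

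Transcription factors of microglia and macrophages moved in both directions. Of 25 tested, 11 of which also stand in another list, 2 were higher and 2 lower in knockouts at 6 weeks, 8 were higher and 10 lower at 2 weeks, and the interaction was called higher for 7 and lower for 2. Nr4a1, a nuclear receptor of the immediate early class, had 13.8, 9.60 and 6.51 CPM in 6-week knockouts and 6.69, 5.87, 4.16 and 5.99 CPM in 6-week controls. In 2-week animals Nr4a1 had 21.9 and 56.4 CPM in knockouts and 0.439 to 1.17 CPM in controls. Its interaction was -4.98 (SE 0.56, adjusted p = 0.000147), with an age change of -2.09 in knockouts and of 2.89 in controls, so that both genotypes moved toward each other. Egr1, also an immediate early gene, went the other way: it had 398.3, 378 and 204 CPM in 6-week knockouts and 306 to 387 CPM in 6-week controls. At 2 weeks Egr1 had 101 and 49.2 CPM in knockouts and 324 to 452 CPM in controls, and its interaction was 2.24 (SE 0.36, adjusted p = 0.00155). Of the 21 immediate early genes 1 was higher at 6 weeks, 7 were higher and 7 lower at 2 weeks, and the interaction was called higher for 4 and lower for 4. Bhlhe40, a transcriptional repressor, had a persisting rise, at 35.3, 31.5 and 19.5 CPM in 6-week knockouts against 0.311 to 2.48 CPM in 6-week controls. Its 2-week levels were 26.2 and 61.6 CPM in knockouts and 0 to 0.690 CPM in controls; it shares exon bases with 0610040F04Rik, so its counts are uncertain.

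Type I interferon genes were higher in knockouts at both ages. Of 31 tested 19 were higher at 6 weeks and 29 at 2 weeks, and none was lower, with list medians of 1.32 at 6 weeks and 2.18 at 2 weeks. Persisting rises numbered 15 and included Irf7, Mx1, Oas2 and Cxcl10, and the interaction was called lower for 6, with a list median of -0.93. For 1 of the 15 the interval of the interaction lay within 1 log2 unit of 0. A missing interaction call does not show that the rise of the others stayed the same. Mx1, an antiviral GTPase, had 17.5, 20.6 and 16.3 CPM in 6-week knockouts and 5.87 to 9.15 CPM in 6-week controls. In 2-week animals it had 21.6 and 20.8 CPM in knockouts and 3.45 to 11.2 CPM in controls, and its log2 change was 1.29 at 6 weeks and 1.70 at 2 weeks. Zbp1, a nucleic acid sensor, had 13.2, 11.1 and 2.93 CPM in 6-week knockouts and 1.13 to 2.76 CPM in 6-week controls. At 2 weeks Zbp1 had 21.3 and 25.04 CPM in knockouts and 0.628 to 0.894 CPM in controls, and its interaction of -2.76 (SE 0.62, adjusted p = 0.00898) held under every alternative. Isg15, a ubiquitin-like protein, had 1.81, 4.74 and 2.86 CPM in 6-week knockouts and 1.63 to 3.32 CPM in 6-week controls, and its interaction of -2.15 (adjusted p = 0.024) was lost without the library labelled knockout 89 (adjusted p = 0.12). Without that library the interaction was called for 1 of the 31 genes, and without the library labelled knockout 380 the 6-week rise was called for 10.

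The promoter of Isg15 is shown for its interferon-stimulated response element, from RefSeq (GRCm38.p6), with capitals marking overlapping matches to GAAANNGAA.
Isg15, chr4:156200819-156200938, minus strand: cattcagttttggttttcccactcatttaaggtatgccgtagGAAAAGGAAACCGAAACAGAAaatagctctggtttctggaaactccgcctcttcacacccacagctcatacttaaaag
Within 250 bases before the start, GAAANNGAA on either strand was found in 44.4% of 27 promoters of 23 genes of the interferon list and in 7.1% of all promoters.

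Genes of the disease-associated microglia state included an effect that grew. Of 25 tested 10 were higher and 1 lower at 6 weeks, 15 were higher and 2 lower at 2 weeks, and the interaction was called higher for 2 and lower for 5, with 2 lower without the library labelled knockout 89. Apoe, the lipid carrier apolipoprotein E (chromosome 7, 19696109 to 19699188), had 18030, 51010 and 20920 CPM in 6-week knockouts and 498, 562, 352 and 295 CPM in 6-week controls. It had 15260 and 15150 CPM in 2-week knockouts and 1740, 1457, 1781 and 1300 CPM in 2-week controls. The level in knockouts was high at both ages, with an age change of 0.91 that did not pass (adjusted p = 0.1), whereas controls fell with age by 1.89 on the log2 scale (adjusted p = 0.00191). The knockout effect was 6.08 at 6 weeks and 3.28 at 2 weeks, and the interaction was 2.80 (SE 0.52, adjusted p = 0.00411), or 2.18 without the library labelled knockout 380 (adjusted p = 0.00127). The neighbouring Apoc1 had 35.5, 15.1 and 18.8 CPM in 6-week knockouts and at most 0.5001 CPM in 6-week controls, and its interaction of 3.47 (adjusted p = 0.0354) was lost in 10 alternatives, among them leaving out knockout 80, the library labelled knockout 89 and the sex term.

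Other genes of that state persisted, faded or turned. Axl, a receptor for dying cells, had 515, 653 and 395 CPM in 6-week knockouts and 12.8 to 22.3 CPM in 6-week controls. Its 2-week levels were 504 and 468 CPM in knockouts and 19.6 to 30.6 CPM in controls, and its log2 change was 5.00 at 6 weeks and 4.32 at 2 weeks. Cst7, Spp1, Igf1, Gpnmb, Cd63 and Lyz2 also had persisting rises. Of the 7 persisting rises of this list 1 had an interaction interval within 1 log2 unit of 0. For the others an equal effect at both ages is not shown. Itgax, which encodes CD11c, was not called at 6 weeks and was called at 2 weeks, and its level changed with age in controls (2.09) and not detectably in knockouts (-0.07, adjusted p = 0.91). It had 15.0, 12.8 and 12.8 CPM in 6-week knockouts and 12.04 to 24.1 CPM in 6-week controls. In 2-week animals Itgax had 11.4 and 15.4 CPM in knockouts and 1.67 to 5.12 CPM in controls. Ccl6, a chemokine, reversed: it had 87.4, 84.4 and 86.7 CPM in 6-week knockouts and 150 to 267 CPM in 6-week controls. At 2 weeks Ccl6 had 242 and 467 CPM in knockouts and 118 to 184 CPM in controls, and its interaction of -2.67 (SE 0.36, adjusted p = 0.000675) held under every alternative.

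Inflammatory genes gave interaction calls in both directions. Their counts stand beside 11.6% of all genes called at 6 weeks, 42.2% at 2 weeks and 15.8% for the interaction. Of 24 tested 10 were higher and 1 lower at 6 weeks, 13 were higher and 5 lower at 2 weeks, and the interaction was called higher for 2 and lower for 4, with 0 higher without the library labelled knockout 89. The course of 7 of the 24 was not resolved. Il1b, the cytokine interleukin-1 beta, had 16.3, 29.8 and 38.2 CPM in 6-week knockouts and 5.01 to 7.67 CPM in 6-week controls. Its 2-week levels were 36.9 and 44.2 CPM in knockouts and 1.67 to 2.93 CPM in controls. Il1b shares exon bases with Il1bos, and its interaction of -1.92 (SE 0.41, adjusted p = 0.00686) went with an age change in controls of 1.32 (adjusted p = 0.00581) and in knockouts of -0.60, which did not pass. Ccl2, a monocyte attractant, had 41.1, 54.01 and 32.3 CPM in 6-week knockouts and 22.1 to 28.3 CPM in 6-week controls. In 2-week animals Ccl2 had 112 and 84.7 CPM in knockouts and 20.0 to 30.3 CPM in controls, and its interaction was -1.33 (SE 0.27, adjusted p = 0.00473), a call lost with the newborn groups in the fit (adjusted p = 0.162). Tnf was called higher at both ages, by 1.57 at 6 weeks and 2.36 at 2 weeks. It had no interaction call, which does not show that its course differed from that of Il1b or Ccl2.

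Receptors and presentation genes were mixed. Over all genes tested 11.6% were called at 6 weeks, 42.2% at 2 weeks and 15.8% for the interaction. The lysosome counts below lay near these shares and set that list apart from other genes in no way. Of 12 Toll-like receptors 3 were higher and 1 lower at 6 weeks, 2 were higher and 6 lower at 2 weeks, and the interaction was called higher for 5, or for 3 without the library labelled knockout 89. Tlr5, the flagellin receptor, had 46.6, 23.8 and 42.8 CPM in 6-week knockouts and 38.5 to 43.2 CPM in 6-week controls. At 2 weeks Tlr5 had 14.0 and 7.43 CPM in knockouts and 37.5 to 48.01 CPM in controls, and its interaction was 1.91 (SE 0.32, adjusted p = 0.00166). Tlr8, an endosomal RNA receptor, persisted at a high level, with 61.2, 129 and 67.6 CPM in 6-week knockouts and 0.280 to 1.79 CPM in 6-week controls. Of 17 complement and Fc receptor genes 4 were higher and 1 lower at 6 weeks, 8 were higher and 5 lower at 2 weeks, and the interaction was called higher for 2 and lower for 4, with 0 to 4 higher and 2 to 4 lower when 1 library was left out. Cfp, the complement activator properdin, had 8.87, 10.8 and 5.01 CPM in 6-week knockouts and 2.14 to 3.08 CPM in 6-week controls. In 2-week animals Cfp had 51.3 and 105 CPM in knockouts and 1.55 to 2.20 CPM in controls, and its interaction was -3.82 (SE 0.45, adjusted p = 0.00017). Antigen presentation genes gave 6 rises at 6 weeks and 11 rises and 2 falls at 2 weeks among 19, and the interaction was called higher for 1 and lower for 4, with 0 lower without the library labelled knockout 89. Lysosome genes gave 3 rises and 1 fall at 6 weeks and 8 rises and 6 falls at 2 weeks among 28, with 4 interaction calls higher and 1 lower, and 2 higher without the library labelled knockout 89. Of 22 cholesterol synthesis genes edgeR called 0 at 6 weeks (2 at an unadjusted p under 0.05, 0 by DESeq2) and 3 higher at 2 weeks, and it called 0 for the interaction (3 at an unadjusted p under 0.05, 1 by DESeq2).

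Genes of the deacetylase system gave 2 interaction calls among 16 other histone deacetylases and 2 among 31 complex subunits, against 15.8% of all genes tested. The knockout effect was called for 11.6% of all genes at 6 weeks and 42.2% at 2 weeks. Counts of both lists at each age lay near or under these shares. Of those 16 other deacetylases, sirtuins included, Hdac9 was the 1 called at 6 weeks, 4 were higher and 2 lower at 2 weeks, and the interaction was called higher for Hdac10 (1.04, adjusted p = 0.0198) and lower for Hdac4 (-0.64, adjusted p = 0.0489). Neither call held without the library labelled knockout 89, with adjusted p of 0.0604 for Hdac10 and 0.367 for Hdac4. Hdac9, a class IIa deacetylase, had 82.5, 115 and 94.6 CPM in 6-week knockouts and 25.4 to 37.8 CPM in 6-week controls. At 2 weeks it had 119 and 112 CPM in knockouts and 33.0 to 42.4 CPM in controls, and its log2 change of 1.58 at 6 weeks and 1.62 at 2 weeks left an interaction of -0.04 with an interval from -0.50 to 0.42. Of 31 subunits of HDAC1 and HDAC2 complexes 4 were higher at 6 weeks, 8 were higher and 1 lower at 2 weeks, and the interaction was called lower for 2. Rbbp7, a histone-binding subunit, had 81.8, 76.4 and 71.8 CPM in 6-week knockouts and 83.8 to 99.6 CPM in 6-week controls. In 2-week animals Rbbp7 had 190 and 169 CPM in knockouts and 89.5 to 105 CPM in controls, and its interaction was -1.16 (SE 0.16, adjusted p = 0.000383); it shares exon bases with Txlng. The methyl-CpG reader Mbd2 was called lower as well, at -1.04 (adjusted p = 0.0105), but not without the library labelled knockout 89 (-0.61, adjusted p = 0.122).

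**Figure D3:**
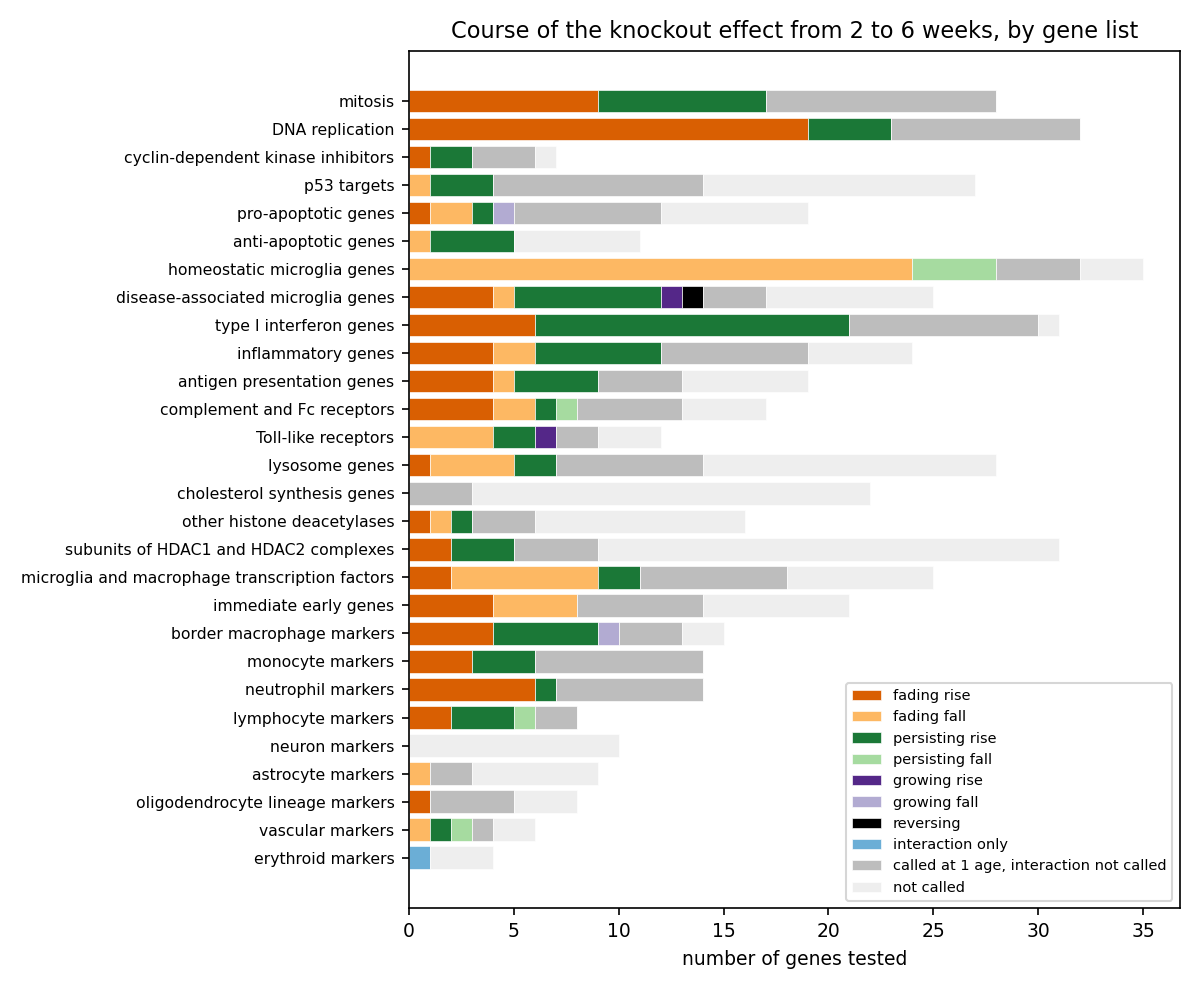
Number of tested genes (x axis) of each of the 28 gene lists by the course of the knockout effect from 2 to 6 weeks. Mitosis and DNA replication hold fading rises (9 and 19 genes), the homeostatic list fading falls (24) and the interferon list 15 persisting rises of 31 genes. Persisting means called at both ages in the same direction with no interaction call, which does not show an equal effect.

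Large effects of like size at both ages were found outside the microglia state lists. The genes below were chosen for like size and for no overlap between groups at either age, so neither is a result. Among genes whose interaction interval lay within 1 log2 unit of 0, Vcam1, an adhesion molecule (chromosome 3, 116109949 to 116129688; it shares exon bases with Gm43109), had 420, 416 and 468 CPM in 6-week knockouts and 19.9, 11.0, 14.8 and 10.8 CPM in 6-week controls. It had 111 and 57.02 CPM in 2-week knockouts and 2.59, 2.30, 2.39 and 2.93 CPM in 2-week controls. Vcam1 thus rose with age in both genotypes by a like amount, 2.34 in knockouts and 2.46 in controls on the log2 scale. Its knockout effect was 4.90 at 6 weeks and 5.02 at 2 weeks (interaction of -0.12, SE 0.34). Nbea, a scaffold of membrane traffic (chromosome 3, 55625195 to 56183701), had 3.78, 2.68 and 2.21 CPM in 6-week knockouts and 61.8, 67.6, 65.4 and 74.3 CPM in 6-week controls. In 2-week animals Nbea had 2.12 and 1.59 CPM in knockouts and 55.9, 60.6, 49.5 and 55.7 CPM in controls. Its effect was -4.61 at 6 weeks and -4.91 at 2 weeks. The motor protein Myo6 showed the same, with effects of -4.55 and -4.71, and its relative Myo5a went up, with effects of 2.99 at 6 weeks and 2.95 at 2 weeks. Gpx3, a secreted peroxidase, kept an effect of 2.99 at 6 weeks and 3.12 at 2 weeks although its level fell with age in both genotypes, to 4.36, 6.08 and 5.59 CPM in 6-week knockouts and 0.375 to 0.973 CPM in 6-week controls, against 97.1 and 94.98 CPM in 2-week knockouts and 9.97 to 13.01 CPM in 2-week controls. Siglecf, an inhibitory lectin of myeloid cells, and the adhesion molecule Pecam1 kept falls of 2.78 and 2.91 on the log2 scale at 6 weeks and of 3.03 and 2.76 at 2 weeks.

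**Figure D4:**
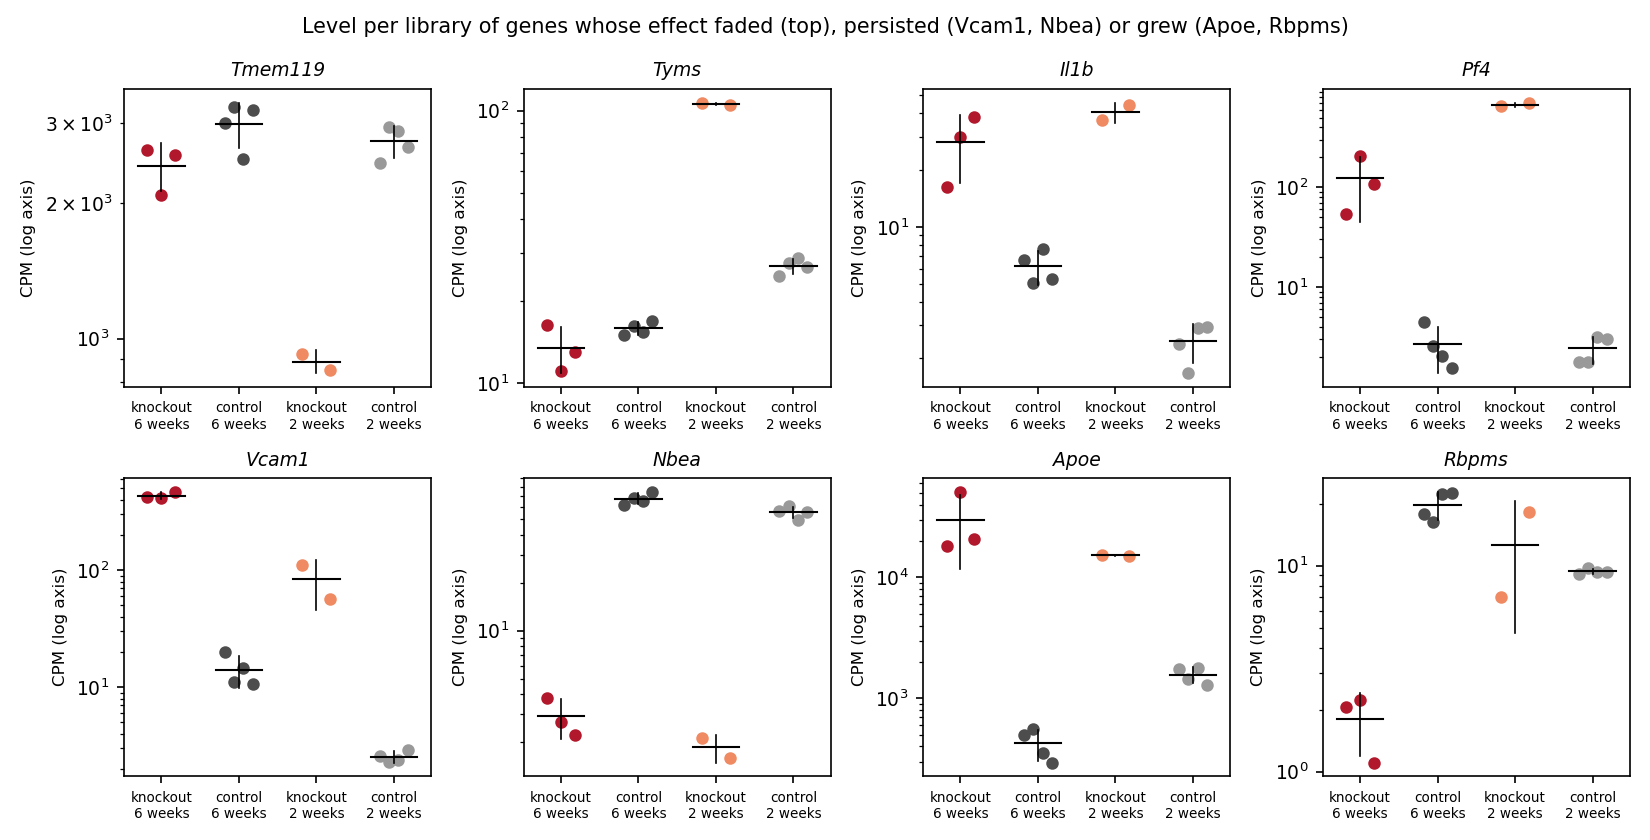
CPM (log axis) per library of 4 genes whose effect faded (Tmem119, Tyms, Il1b and Pf4), 2 whose effect persisted (Vcam1 and Nbea) and 2 whose effect grew (Apoe and Rbpms); points are libraries, horizontal bars group means and vertical lines ± 1 SD (n = 3, 4, 2 and 4). For Tyms the 6-week groups meet at 11.1 to 16.9 CPM while the 2-week knockouts stand at 107 and 105 CPM, and for Vcam1 both genotypes are higher at 6 weeks.

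Effects that grew by 6 weeks were few. Rbpms, an RNA-binding protein (chromosome 8, 33782643 to 33929863), had 2.05, 2.23 and 1.11 CPM in 6-week knockouts and 17.8, 16.3, 22.3 and 22.5 CPM in 6-week controls. It had 7.03 and 18.2 CPM in 2-week knockouts and 9.15, 9.73, 9.35 and 9.34 CPM in 2-week controls, on both sides of which the knockouts lay. Its interaction was -3.98 (SE 0.46, adjusted p = 0.000168) and held under every alternative, with a fall with age in knockouts (-2.92) and a rise in controls (1.06). Fam171a1, a membrane protein, had 0.493, 0.446 and 0.846 CPM in 6-week knockouts and 5.88 to 10.2 CPM in 6-week controls, against 11.4 and 2.30 CPM in 2-week knockouts and 4.83 to 11.1 CPM in 2-week controls. Its interaction was -3.61 (SE 0.69, adjusted p = 0.00329), or -2.17 without knockout 80 (adjusted p = 0.0187). Xlr3b, an X-linked gene of a multicopy family whose counts may be shared between copies, had 0.0822, 0 and 0.260 CPM in 6-week knockouts and 2.56 to 7.95 CPM in 6-week controls. In the 2-week knockouts it had 18.6 and 0.973 CPM, and its interaction of -6.94 (adjusted p = 0.0104) was lost without knockout 80 (-3.76, adjusted p = 0.0527). Of the growing rises, Gabbr2, a GABA-B receptor subunit, had 10.1, 21.2 and 3.51 CPM in 6-week knockouts and 0.0400 to 0.245 CPM in 6-week controls. Its interaction of 5.26 (adjusted p = 0.0215) was lost without the library labelled knockout 89 (adjusted p = 0.0993), without 1 control of 2 weeks and with sex in the fit (3.26, adjusted p = 0.194). Pdgfrl, a receptor-like secreted protein, had 6.24, 7.53 and 3.45 CPM in 6-week knockouts and 0.734 to 1.13 CPM in 6-week controls, with an interaction of 2.15 (SE 0.54, adjusted p = 0.0151).

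The reversals included Stk26, a kinase of the Ste20 family. It had 5.18, 10.2 and 5.33 CPM in 6-week knockouts and 18.9 to 22.1 CPM in 6-week controls, against 21.2 and 57.5 CPM in 2-week knockouts and 7.09 to 10.2 CPM in 2-week controls. Its interaction was -3.77 (SE 0.47, adjusted p = 0.000293) and held under every alternative. Nhsl2 and Rabif reversed in the same direction, with interactions of -1.96 (SE 0.32, adjusted p = 0.00144) and -1.73 (SE 0.32, adjusted p = 0.0026). Without the library labelled knockout 89 the interaction of Nhsl2 was -1.16 (adjusted p = 0.00354). Gatm, which makes the creatine precursor guanidinoacetate, reversed upward: it had 248, 267 and 303 CPM in 6-week knockouts and 183 to 213 CPM in 6-week controls, against 478 and 397 CPM in 2-week knockouts and 894 to 1076 CPM in 2-week controls. Its level fell with age in both genotypes, by 0.74 on the log2 scale in knockouts and by 2.32 in controls.

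The largest fading changes by size of the interaction were in genes with few or no counts in a group. Igha, the constant region of IgA, and Ikzf3, a lymphoid transcription factor, had 0 counts in all 2-week controls and were at least 111-fold and at least 242-fold higher in 2-week knockouts (bounds from 3 counts over the group). Aqp9, an aquaglyceroporin, was at least 293-fold higher and Erbb3, a neuregulin receptor, at least 153-fold higher on the same basis. Those 4 calls were lost without the library labelled knockout 89, with adjusted p of 0.0787 for Igha, 0.0899 for Ikzf3, 0.0879 for Aqp9 and 0.0576 for Erbb3. The calls of Igha, Ikzf3 and Aqp9 were also lost without the library labelled knockout 380, and that of Ikzf3 without knockout 80. Among falls, Kcnma1, a calcium-activated potassium channel, had 10.9, 9.60 and 6.83 CPM in 6-week knockouts and 29.8 to 39.9 CPM in 6-week controls, against 0.4002 and 0.0885 CPM in 2-week knockouts and 17.8 to 24.1 CPM in 2-week controls. Its interaction was 4.52 (SE 0.44, adjusted p = 4.14e-05) and held under every alternative, but it shares exon bases with an antisense gene, so its counts are uncertain. Chst8, a sulfotransferase, had 0 counts in both 2-week knockouts and was at least 46.3-fold lower there than in 2-week controls, and its call was lost without the library labelled knockout 89 (adjusted p = 0.0563).

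Markers of other cells moved with these effects and are given for that reason. The summed level of 14 neutrophil markers was 2808 to 5741 CPM in 6-week knockouts and 927 to 1357 CPM in 6-week controls. At 2 weeks it was 19119 CPM in knockout 80, 54539 CPM in the library labelled knockout 89 and 470 to 1217 CPM in controls. Of the 14 markers 5 were higher at 6 weeks, 13 were higher and Csf3r was lower at 2 weeks, and the interaction was called lower for 6, none of them without the library labelled knockout 89. S100a8, a calcium-binding protein abundant in neutrophils, had 376.3, 836 and 381 CPM in 6-week knockouts and 70.3 to 116 CPM in 6-week controls, against 3226 and 7730 CPM in 2-week knockouts and 21.4 to 124 CPM in 2-week controls. The 14 monocyte markers summed to 329 to 1134 CPM in 6-week knockouts and 61.1 to 166 CPM in 6-week controls, and to 2520 and 5830 CPM in 2-week knockouts and 22.6 to 92.8 CPM in 2-week controls. Of these, 5 were higher at 6 weeks and all 14 at 2 weeks, none was lower, and the interaction was called lower for 3, with 0 of them left without the library labelled knockout 89. No neutrophil or monocyte marker was at 0 in a whole group. The monocyte list includes Cd177, an antigen of neutrophils, so its sum and counts do not stand for monocytes alone. Cd177 is among its interaction calls (-3.93, adjusted p = 0.0481, edgeR). The part of these cells in the fall of homeostatic genes, in the rise of interferon, inflammatory and disease-associated genes and in the cell cycle counts was not tested.

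Border macrophage markers, which distinguish macrophages of the meninges and vessels, gave 7 rises and 1 fall at 6 weeks and 12 rises at 2 weeks among 15, and the interaction was called lower for 5, or for 3 without the library labelled knockout 89. Ms4a7 had a persisting rise, at 452, 831 and 373 CPM in 6-week knockouts and 0.739 to 2.20 CPM in 6-week controls, against 259 and 229 CPM in 2-week knockouts and 0.691 to 1.70 CPM in 2-week controls. Mrc1, the mannose receptor, also persisted, with effects of 3.98 at 6 weeks and 3.35 at 2 weeks. Lyve1, a hyaluronan receptor of border macrophages, was by contrast at 0.657, 0.0558 and 0.325 CPM in 6-week knockouts and at 0.0611 to 1.94 CPM in 6-week controls, against 14.5 and 20.3 CPM in 2-week knockouts and 0.864 to 1.78 CPM in 2-week controls. Its interaction was -5.23 (SE 1.05, adjusted p = 0.00508). Pf4, platelet factor 4, had 53.7, 206 and 108 CPM in 6-week knockouts and 1.56 to 4.50 CPM in 6-week controls, against 652 and 697 CPM in 2-week knockouts and 1.78 to 3.14 CPM in 2-week controls. Its interaction of -2.63 (adjusted p = 0.0302) was lost without the library labelled knockout 89 (adjusted p = 0.122) and without knockout 80 (adjusted p = 0.0504). Of 8 lymphocyte markers tested 3 were higher and 1 lower at 6 weeks, 7 were higher and 1 lower at 2 weeks, and the interaction was called lower for 2, neither of them without the library labelled knockout 89. The lymphocyte sum was 16.1 to 17.99 CPM in 6-week knockouts and 45.7 to 61.02 CPM in 6-week controls, and at 2 weeks 73.5 and 42.3 CPM in knockouts and 84.04 to 97.7 CPM in controls. The sum was thus lower in knockouts at both ages, and Cd79b was the 1 marker called lower at each age. Of the 14 lymphocyte markers listed 4 were at 0 in all 6-week knockouts, 3 in all 6-week controls and 5 in all 2-week controls, and none was at 0 in both 2-week knockouts. Among 10 neuron, 9 astrocyte, 8 oligodendrocyte lineage, 6 vascular and 4 erythroid markers tested, edgeR called the interaction for 0, 1, 1, 1 and 1, of which the oligodendrocyte call was lower and the other 3 were higher. The interaction was called for 15.8% of all genes tested. For the neuron markers 0 also passed at an unadjusted p under 0.05, and 0 by DESeq2. Astrocyte markers summed to 114 to 216 CPM in 6-week knockouts and 342 to 537 CPM in 6-week controls, and to 36.1 and 22.8 CPM in 2-week knockouts and 215 to 257 CPM in 2-week controls. Vascular markers summed to 21.98 to 26.3 CPM in 6-week knockouts and 41.9 to 63.9 CPM in 6-week controls, and to 24.2 and 20.2 CPM in 2-week knockouts and 59.8 to 68.3 CPM in 2-week controls. Both sums were lower in knockouts without overlap at either age, but a sum follows its most abundant members. Every knockout lay below every control for 8.37% of all genes tested at 6 weeks and for 24.8% at 2 weeks. The calls given next stand beside 11.6% of all genes called at 6 weeks and 42.2% at 2 weeks. Of the 9 astrocyte markers 0 were higher and 1 lower at 6 weeks, and 1 was higher and 2 lower at 2 weeks. Their median log2 change was 0.53 at 6 weeks and 0.36 at 2 weeks. Of the 6 vascular markers 1 was higher and 1 lower at 6 weeks, and 1 was higher and 3 lower at 2 weeks. Pecam1 alone held 50.9 to 56.2 CPM of the vascular sum in 2-week controls. The part of these markers in the fall of homeostatic genes was not tested.

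Sex tracked age in all animals but 1. By their Xist and Y-linked counts all 3 knockouts and 4 controls of 6 weeks were female, as was 1 of the 4 controls of 2 weeks. The remaining 5 animals of 2 weeks were male. A change of the knockout effect with age thus cannot be told apart from a difference of that effect between sexes. Knockouts and controls of an age shared their sex apart from that 1 control, and with sex in the fit 14 of the 100 interaction calls among the named genes were lost.

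The inducible model was sampled at the same ages and offers a comparison. There the Cre was CX3CR1-CreERT2, and both genotypes, with Cre-free controls, were exposed to tamoxifen through the dam on embryonic day 13 (n = 4 in each of the 4 groups). The age interaction of the inducible model was called for 0 of 16933 genes by edgeR, with 1079 (6.37%) at an unadjusted p under 0.05, and DESeq2 called 2 higher and 6 lower. The difference between the constitutive and the inducible age interaction passed for 1327 genes (7.84%), with 581 higher (3.43%) and 746 lower (4.41%), and 22% of genes had an unadjusted p under 0.05. Among the 1499 fading rises of the constitutive model 642 differed between models, and among the 879 fading falls 446 did. Since the classes were made from the same constitutive libraries, these counts are a description. The median interaction of the fading rises was -1.15 in the constitutive and -0.04 in the inducible model, and that of the homeostatic list was 0.93 and 0.00, with 24 of 35 genes differing. The inducible homeostatic sum was 120400 to 126500 CPM in 6-week knockouts and 124500 to 131800 CPM in 6-week controls. At 2 weeks it was 105700 to 125100 CPM in knockouts and 119200 to 126700 CPM in controls. The genotypes overlapped at both ages. The inducible knockout effect at each age was not tested, so an interaction near 0 does not show that an effect persisted. For mitosis the medians were -1.27 and -0.67, and 1 of 28 genes differed. The mitosis sum in the inducible model was 53.4 to 91.2 CPM in 6-week knockouts and 34.9 to 54.5 CPM in 6-week controls, and 197 to 694 CPM in 2-week knockouts and 174 to 307 CPM in 2-week controls.

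The 5 smallest p-values for the difference between models were those of Tmem87a, Plxna4, Magi1, Cd81 and Gatm, all higher in the constitutive model. Tmem87a, a membrane protein of the Golgi, had 24.6, 25.7 and 25.2 CPM in constitutive 6-week knockouts and 21.5 to 26.2 CPM in 6-week controls, against 24.2 and 20.7 CPM in 2-week knockouts and 83.2 to 101 CPM in 2-week controls. Tmem87a shares exon bases with Ganc. Its level in knockouts did not change detectably with age (0.10, adjusted p = 0.571), and controls fell (age change of -1.98, adjusted p = 1.36e-08). The interaction of 2.08 (SE 0.16, adjusted p = 5.93e-06) differed from the inducible one by 2.12 (adjusted p = 6.14e-06). Cd81, a tetraspanin that shares exon bases with R74862, instead rose with age in knockouts: it had 2033, 2056 and 2395 CPM in 6-week knockouts and 2601 to 3274 CPM in 6-week controls, against 368 and 446 CPM in 2-week knockouts and 2203 to 2682 CPM in 2-week controls. Its interaction of 2.04 (SE 0.22, adjusted p = 7.95e-05) differed by 2.05 between models. Plxna4, a semaphorin receptor, differed by 3.01 and Magi1, a junction scaffold, by 2.77, and Gatm by 1.98.

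**Figure D5:**
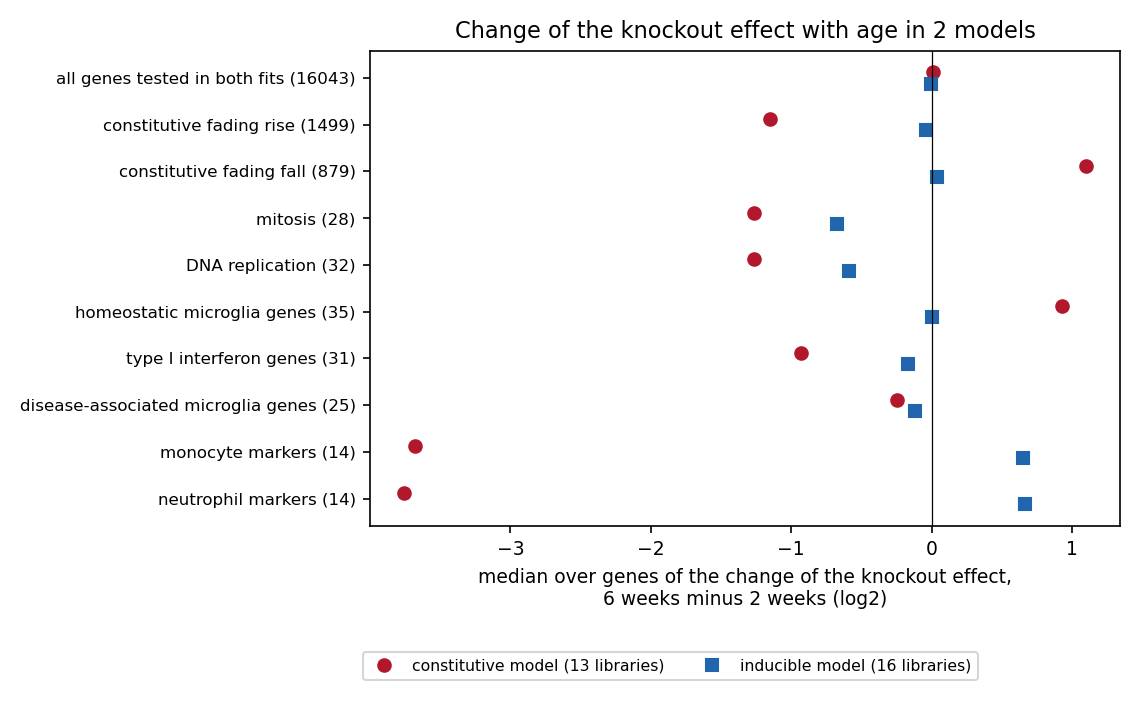
Median over genes of the age interaction (log2, knockout effect at 6 weeks minus that at 2 weeks) in the constitutive model (circles, 13 libraries) and in the inducible model (squares, 16 libraries), for all genes and for gene sets with their size in brackets. The homeostatic median is 0.93 in the constitutive and 0.00 in the inducible model, and the mitosis medians are -1.27 and -0.67. The summed homeostatic level overlapped between inducible knockouts and controls at both ages.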

How the data were processed

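RNA of sorted microglia was amplified with SMARTer Ultra Low and made into Nextera XT libraries, per the labels' protocols. These kits do not mark strand, so genes that share exon bases are uncertain. The deposited table holds raw read counts per gene, and no column of it was left without a sample (0 not mapped). Per the submitters' processing notes, CASAVA 1.8.2, STAR 2.5.2b, GRCm38 and featureCounts 1.5.1 of Subread were used, with limma 3.28.21. For the annotation release, nothing is stated: not given in the sources used here. Of 48526 genes 48058 matched a symbol in the GRCm38 annotation used here, and the 468 others held 0.058% of the counts.

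The counts were analysed in R 4.3.3 with edgeR 4.0.16 (filterByExpr, TMM, glmQLFit and glmQLFTest, Benjamini-Hochberg adjustment over all genes tested, threshold 0.05). A single fit of the 4 groups gave the effects at each age, the age changes and the age interaction. A fit with the inducible groups gave the difference between models. DESeq2 1.42.0 was an alternative, as were no filter, sex as a term, the constitutive newborn groups in the fit and leaving out each library. CPM were computed from the counts. Intervals are 95%, and folds against a group without counts used 3 counts as a floor.

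Genes were named by rule: Hdac1, Hdac2 and Cx3cr1; in each course of effect, genes averaging at least 5 CPM in their highest group whose knockouts lay beyond all controls, largest first; from each list up to 4 members with an interaction call, smallest adjusted p first; and 5 genes for the difference between models. Further list members are given to complete a group and were chosen with their values known. Members and lists were chosen with earlier results of these data known. On simulated data for the age interaction, with 15692 genes, 6% of 100 genes changed by log2 1 and 82% of 100 changed by log2 2 were recovered, with 4 false calls among 92. Some genes that the rule names are not reported here.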

Additional observations from a re-analysis of the deposited data

Results flagged for a closer look

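The knockout effect differed between 6 and 2 weeks for 2534 genes, and the age interaction differed between the constitutive and the inducible model for 1327 genes, both by a test of the difference itself. The model difference was 2.12 for Tmem87a, 3.01 for Plxna4, 2.77 for Magi1, 2.05 for Cd81 and 1.98 for Gatm on the log2 scale.

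Among groups of 4 controls, 18 of 300 groups examined held a library far from the others by Dixon's test, which chance gives in about 1 group in 20. At 6 weeks these were Hdac1 (13.4 CPM, others 16.1 to 16.6), Igha (0.688 CPM, others 0), Aqp9 (0.25 CPM, others 0), Stfa3 (0.55 CPM, others 0.0778 to 0.125), Ccnb2 (0.938 CPM, others 2.18 to 2.28), Cd209f (0.55 CPM, others 0.16 to 0.195) and Mbp (44.0 CPM, others 33.2 to 34.9). At 2 weeks they were Lin28a (0.325 CPM, others 0), Gabbr2 (0.864 CPM, others 0 to 0.126), Xlr3b (6.78 CPM, others 1.71 to 1.73), Rabif (22.3 CPM, others 28.6 to 28.8), Pecam1 (56.2 CPM, others 50.9 to 51.6), C1qa (3360 CPM, others 3100 to 3120) and Cd81 (2680 CPM, others 2200 to 2250). Of the summed lists, 1 control of 6 weeks each stood apart for mitosis (74.1 CPM, others 59.7 to 61.8), for p53 targets (1390 CPM, others 1670 to 1720) and for disease-associated genes (19700 CPM, others 17800 to 17900). At 2 weeks 1 control stood apart for interferon genes (308 CPM, others 345 to 350).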

How the results depend on the processing

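No called result reversed under any alternative run, and the interaction of 7 of the 122 named genes, Hdac1 among them, changed sign in at least 1 alternative. With 1 library left out, the interaction gave 518 to 1272 genes higher and 583 to 1851 lower, and the 6-week effect 679 to 1178 higher and 466 to 993 lower. Age changes in knockouts gave 1510 to 2405 higher and 1776 to 3070 lower, and in controls 592 to 1102 higher. Fading rises ranged over 544 to 1703, fading falls 491 to 1191, growing rises 13 to 33, growing falls 25 to 62, reversals 8 to 46, persisting falls 263 to 516 and persisting effects with a narrow interval 189 to 360. The difference between models ranged over 273 to 773 higher and 220 to 1043 lower, and the inducible interaction over 0 to 1 lower. With DESeq2 there were 58 growing rises, 40 reversals, 1140 model differences lower, and 2 higher and 6 lower inducible calls. With sex as a term there were 15 growing rises, and age changes numbered 665 higher and 927 lower in knockouts and 102 higher and 160 lower in controls. Without a filter there were 19 growing rises, and with the newborn groups in the fit 26 reversals. The causes were not tested. Of 100 interaction calls among named genes 48 held under every alternative, and 44 were lost without the library labelled knockout 89. No paired analysis was possible because the constitutive groups share no replicate number and no 2 of the inducible groups share more than 1.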
